A study of Mus musculus with 10 samples.

Results

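Extraembryonic ectoderm and trophoblast genes were followed as a group of 9 genes, Elf5, Cdx2, Esrrb, Tfap2c, Ets2, Ascl2, Plac1, Rhox6 and Rhox9, in whole mouse embryos at embryonic day 7.5 (E7.5). They were chosen by gene symbol from a list of genes known from these tissues, and all 9 were found among the 20974 genes of the deposited table. All 9 were also among the 15603 genes with a mean of at least 15 normalized counts in at least 1 genotype, which were the genes tested. The question asked of them was how much RNA of extraembryonic kind each embryo held, and whether this differed with genotype.

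The embryos, of strain CD1 by their labels, came from intercrosses of Rreb1+/- mice, and 5 Rreb1+/+ and 5 Rreb1-/- embryos were each sequenced as 1 library and carry the replicate numbers 2 to 6 in both genotypes. The mutant allele was made with CRISPR-Cas9 and lacks most of the coding sequence of exon 6 of Rreb1, which encodes a zinc finger transcription factor. The study combined 2 such deletion lines, and which embryo carried which is not given in the sources used here. The study describes its mice as outbred to CD1 on a mixed background. The allele is carried by every cell, so that the embryo proper and the extraembryonic tissues of a mutant were both mutant. The parietal endoderm was removed at dissection for genotyping, and RNA was made from what remained of each embryo.

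The extraembryonic ectoderm is the part of the trophoblast that borders the epiblast. It holds the trophoblast stem cells, which are kept dividing by FGF and NODAL signals from the epiblast, and it gives rise to the chorion and later to much of the placenta. Further from the epiblast, trophoblast cells form the ectoplacental cone, and at its rim the trophoblast giant cells, which invade the uterine wall. Elf5, Cdx2, Esrrb, Tfap2c and Ets2 encode transcription factors of trophoblast stem cells. Ascl2, an imprinted basic helix-loop-helix factor, is needed for the spongiotrophoblast and is active in the ectoplacental cone, Plac1 encodes a placental membrane protein, and Rhox6 and Rhox9 are homeobox genes of the X-linked Rhox cluster. Several of these genes are not exclusive to trophoblast: Cdx2 is also active in the posterior streak region and the allantois, Tfap2c in germ cells and surface ectoderm, Esrrb in pluripotent cells and Ets2 in many cell types.

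Because Elf5 and Esrrb, and likewise Ascl2 and Plac1, varied together over the embryos (values given further on), 1 promoter of each is shown, from 250 bases before to 50 after the start of transcription, 5′ to 3′ on the strand of the gene, from RefSeq (GRCm38.p6). The RefSeq table matched 6 of the 9 members, all but Tfap2c, Rhox6 and Rhox9, with 9 windows. Where a gene had 2 windows, the one that held a searched motif is shown. Capitals mark the motif matches.
Elf5, chr2:103411848-103412147, plus strand: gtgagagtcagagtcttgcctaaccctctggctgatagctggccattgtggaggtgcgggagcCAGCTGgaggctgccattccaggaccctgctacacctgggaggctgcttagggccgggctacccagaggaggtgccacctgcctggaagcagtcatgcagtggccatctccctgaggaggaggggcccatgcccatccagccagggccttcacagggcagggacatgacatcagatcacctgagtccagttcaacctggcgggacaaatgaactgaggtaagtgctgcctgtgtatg
Esrrb, chr12:86421394-86421693, plus strand: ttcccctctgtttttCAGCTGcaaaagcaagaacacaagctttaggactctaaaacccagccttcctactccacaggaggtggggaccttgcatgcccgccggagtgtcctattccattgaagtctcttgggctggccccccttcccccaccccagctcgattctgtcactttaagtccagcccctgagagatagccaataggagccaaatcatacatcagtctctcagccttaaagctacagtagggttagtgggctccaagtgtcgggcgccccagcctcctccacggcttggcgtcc
Ascl2, chr7:142969215-142969514, minus strand: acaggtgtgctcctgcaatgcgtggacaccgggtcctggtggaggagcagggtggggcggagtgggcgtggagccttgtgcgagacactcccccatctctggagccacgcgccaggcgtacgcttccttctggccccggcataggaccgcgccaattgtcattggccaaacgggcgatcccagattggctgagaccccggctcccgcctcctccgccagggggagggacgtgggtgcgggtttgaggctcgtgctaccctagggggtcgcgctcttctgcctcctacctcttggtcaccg
Plac1, chrX:53240061-53240360, minus strand: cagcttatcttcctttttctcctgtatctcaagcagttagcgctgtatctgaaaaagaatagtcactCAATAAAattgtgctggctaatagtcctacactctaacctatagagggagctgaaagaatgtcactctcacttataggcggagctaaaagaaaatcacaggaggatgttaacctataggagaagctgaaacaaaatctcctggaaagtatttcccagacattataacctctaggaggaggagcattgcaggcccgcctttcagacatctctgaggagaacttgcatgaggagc

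The letters searched on both strands were GGAAGT (an ETS core), CAATAAA (CDX), AAGGTCA (ESRRB), GCCNNNGGC (TFAP2) and CAGCTG (an E-box). None of these motifs overlapped another in the windows shown. CAGCTG stood in 1 window of Elf5, in 1 window of Esrrb and in the single window of Cdx2, and in 16.3% of all 32851 promoter windows. CAATAAA stood in 1 window of Plac1 and in 4.6% of all windows, and GCCNNNGGC in the window of Cdx2 and in 16.6% of all. GGAAGT (23.8% of all windows) and AAGGTCA (4.72%) had no match in any of the 9 windows. The 4 windows shown thus shared no motif beyond the E-box of Elf5 and Esrrb, and the window of Ascl2 held none. The windows of Elf5, Esrrb and Plac1 that are not shown held no searched motif. Because the windows of Elf5 and Esrrb were picked for holding a motif, their shared E-box is not a result about the pair.

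None of the 9 genes was called between the genotypes. Rhox9 and Rhox6 had higher means in the mutants (fold 1.69 and 1.45) and Plac1, Cdx2, Ascl2 and Ets2 lower ones (fold 0.685, 0.714, 0.807 and 0.865), but every one of these differences missed the threshold and the values of the genotypes overlapped for all 9 genes. Embryos of the same genotype differed widely for some genes: Esrrb ranged 7.84-fold among the mutants and Plac1 5.48-fold among the Rreb1+/+ embryos. Ets2 ranged only 1.09-fold among the mutants and 1.40-fold among the Rreb1+/+ embryos. Such ranges, highest over lowest embryo, are not on the scale of a fold between means. In the limma fit on log2(normalized count + 1), 0 of 9 genes passed an adjusted p of 0.05, beside 4.26% of all genes tested (3.11% higher and 1.15% lower in mutants). At an unadjusted p under 0.05 there were 2 of 9, Rhox9 upward and Ets2 downward, beside 18.0% of all genes. The median log2 fold change of the 9 was 0.11, and that of all genes tested was −0.02. Non-overlapping genotypes were seen for 0 of 9 and for 6.70% of all genes. On reads recovered from the deposited values, edgeR called 0 of 9 (4.42% of all genes) and DESeq2 0 of 9 (8.10% of the genes with an adjusted p).

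**Figure D1:**
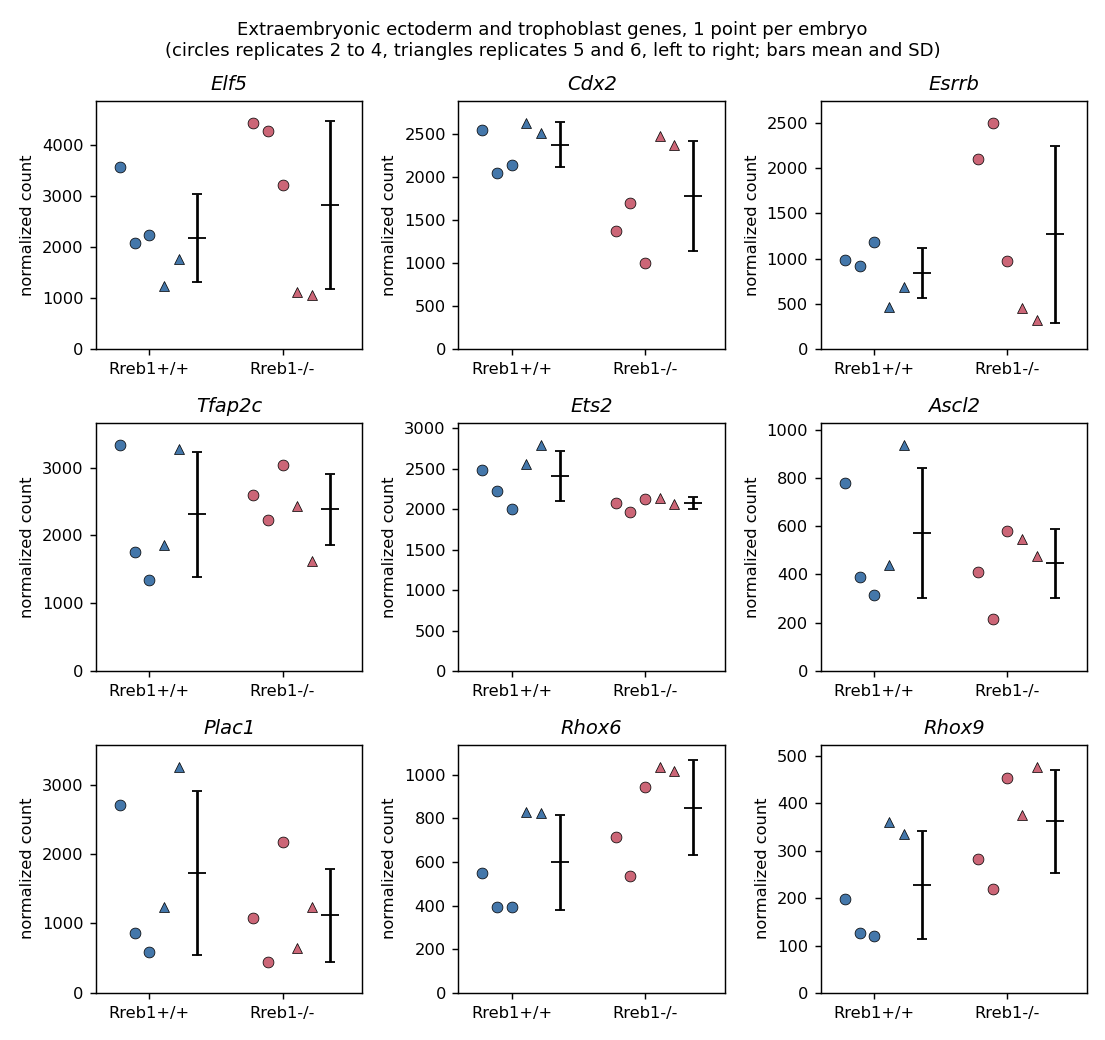
Normalized counts (vertical axes, each from 0) of the 9 genes in each embryo, Rreb1+/+ in blue and Rreb1-/- in red, replicates 2 to 6 from left to right within a genotype, with circles for replicates 2 to 4, triangles for replicates 5 and 6, and bars for the mean and SD of 5 embryos. The genotypes overlap in every panel, and the triangles lie low for Elf5 and Esrrb and high for Rhox6.

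These are whole-embryo measurements, so fewer trophoblast cells and less RNA of a gene per cell cannot be told apart. Each library was sequenced deeply (31467767 to 35786876 recovered reads in genes), and the 9 genes together took 0.0305% to 0.05% of the reads of a Rreb1+/+ embryo and 0.0320% to 0.0440% of those of a mutant. Across all genes, replicates 5 and 6 of both genotypes stood apart from replicates 2 to 4, with lower levels of most epiblast and streak genes examined. This split was found in the data, the labels do not name it, and values are therefore also given within each set.

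The regulators of trophoblast stem cells were measured as follows, with the embryos always in the order of replicates 2, 3, 4, 5 and 6. Elf5 encodes an ETS factor that keeps cells in the trophoblast lineage and lies on chromosome 2 from 103411688 to 103450989 (plus strand; this and later positions are from GENCODE M21, GRCm38). Elf5 stood at 3581, 2093, 2232, 1245 and 1775 normalized counts in Rreb1+/+ embryos and at 4432, 4288, 3221, 1130 and 1068 in Rreb1-/- embryos. The mutants held both the highest and the lowest values, replicates 2 to 4 being high and replicates 5 and 6 low, and the Rreb1+/+ embryos lay within their range. On average Elf5 was at 2185 ± 868 and 2828 ± 1646 (SD over 5 embryos), and the log2 fold change was 0.20 (95% interval −0.77 to 1.17, limma, adjusted p = 0.857).

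Esrrb, an orphan nuclear receptor that acts downstream of FGF in trophoblast stem cells, lies on chromosome 12 from 86361117 to 86521628 (plus strand). Esrrb stood at 983, 914, 1182, 467 and 683 in Rreb1+/+ embryos and at 2096, 2494, 978, 453 and 318 in mutants. Mutant replicates 2 and 3 exceeded every Rreb1+/+ embryo, whereas mutant replicates 5 and 6 lay below every Rreb1+/+ embryo. Esrrb thus had a log2 fold change of 0.22 (95% interval −0.95 to 1.40, limma, adjusted p = 0.870), so that the interval covers a fold of 0.518 to 2.64.

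Cdx2, a caudal-type homeobox factor of the trophectoderm and later of the posterior embryo, lies on chromosome 5 from 147300805 to 147307270 (minus strand). Cdx2 stood at 2552, 2049, 2146, 2627 and 2511 in Rreb1+/+ embryos and at 1371, 1699, 998, 2485 and 2376 in mutants. Mutant replicates 2 to 4 were below all Rreb1+/+ embryos, and mutant replicates 5 and 6 were among them, and each mutant was below the Rreb1+/+ embryo of the same number. Between genotypes Cdx2 differed by a log2 fold change of −0.49 (95% interval −0.97 to 0.00, limma, unadjusted p = 0.0503, adjusted p = 0.280), and the exact two-sided permutation test gave p = 0.0952, where the smallest value that 5 and 5 embryos allow is 0.00794.

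Tfap2c encodes an AP-2 factor of trophoblast stem cells and of germ cells and lies on chromosome 2 from 172549593 to 172558622 (plus strand). Tfap2c stood at 3330, 1752, 1344, 1858 and 3273 in Rreb1+/+ embryos and at 2593, 2223, 3038, 2441 and 1619 in mutants. High values were those of Rreb1+/+ replicates 2 and 6 and mutant replicate 4, and the mutants lay wholly within the Rreb1+/+ range. The log2 fold change was 0.11 (95% interval −0.46 to 0.67, limma, adjusted p = 0.871).

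Ets2, an ETS factor that responds to FGF and ERK signalling, lies on chromosome 16 from 95702075 to 95721051 (plus strand) and was the steadiest of the 9. Ets2 stood at 2484, 2228, 1997, 2561 and 2789 in Rreb1+/+ embryos and at 2075, 1959, 2125, 2141 and 2063 in mutants. Of the Rreb1+/+ embryos only replicate 4 came within the narrow range of the mutants. The log2 fold change was −0.21 (95% interval −0.40 to −0.02, limma, unadjusted p = 0.0308, adjusted p = 0.223; exact two-sided permutation p = 0.0476).

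Ascl2 lies on chromosome 7 from 142966829 to 142969264 (minus strand). Ascl2 stood at 779, 388, 316, 438 and 935 in Rreb1+/+ embryos and at 409, 217, 580, 547 and 475 in mutants. Rreb1+/+ replicates 2 and 6 were above every mutant, and mutant replicate 3 was below every Rreb1+/+ embryo. For Ascl2 the log2 fold change was −0.31 (95% interval −1.05 to 0.44, limma, adjusted p = 0.678).

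Plac1 lies on the X chromosome from 53069995 to 53240111 (minus strand). Plac1 stood at 2709, 859, 594, 1242 and 3252 in Rreb1+/+ embryos and at 1082, 445, 2178, 647 and 1236 in mutants. The same embryos as for Ascl2 stood out, Rreb1+/+ replicates 2 and 6 and mutant replicate 4 being the highest and mutant replicate 3 the lowest. The log2 fold change was −0.55 (95% interval −1.69 to 0.60, limma, adjusted p = 0.629), an interval second in width to that of Esrrb.

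The homeobox genes Rhox6 and Rhox9 lie near each other on the X chromosome, Rhox6 from 37826910 to 37829857 (plus strand) and Rhox9 from 37899097 to 37901770 (minus strand). Rhox6 stood at 548, 394, 391, 830 and 825 in Rreb1+/+ embryos and at 713, 534, 944, 1034 and 1015 in mutants. Rhox9 stood at 198, 125, 119, 361 and 336 in Rreb1+/+ embryos and at 283, 220, 453, 376 and 477 in mutants. For both genes each mutant exceeded the Rreb1+/+ embryo of the same number, while Rreb1+/+ replicates 5 and 6 stood above mutant replicates 2 and 3, so that the genotypes overlapped. The log2 fold change of Rhox6 was 0.54 (95% interval −0.03 to 1.12, limma, adjusted p = 0.312). That of Rhox9 was 0.76 (95% interval 0.00 to 1.52, limma, unadjusted p = 0.0489, adjusted p = 0.275; exact two-sided permutation p = 0.103). With the replicate number as a block these moved to adjusted p = 0.0672 and 0.0997 and that of Cdx2 to 0.112, and 0 of 9 genes were called under the block, beside 6.87% of all genes.

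Rhox6 and Rhox9 are near copies in part: 159 of the 961 stretches of 50 bases (the read length) in the transcripts of Rhox6 also occur in Rhox9, which is 16.6% of those of Rhox6 and 6.28% of those of Rhox9. Their values are therefore uncertain where the counting split or dropped such reads. Of the other 7 genes Elf5 shared 0.273% of its stretches with other genes, and the remaining 6 shared none.

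Per kilobase of exon, a scale on which genes can be compared with each other, the Rreb1+/+ embryos held most of Plac1 (1241 ± 845 normalized counts per kb, SD, n = 5) and Cdx2 (1051 ± 115). Then came Tfap2c (628 ± 251), Rhox6 (592 ± 217), Ets2 (417 ± 53.0), Elf5 (372 ± 148) and Ascl2 (352 ± 167). Esrrb (140 ± 45.8) and Rhox9 (91.6 ± 46.1) were lowest per kb. Neighbours in this order overlapped between embryos except Cdx2 and Tfap2c, whose ranges per kb, 906 to 1162 and 365 to 905, just failed to meet. In the mutants the means per kb put Rhox6 (840 ± 215) first, ahead of Plac1 (801 ± 483), Cdx2 (790 ± 283) and Tfap2c (648 ± 142), and their ranges overlapped.

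**Figure D2:**
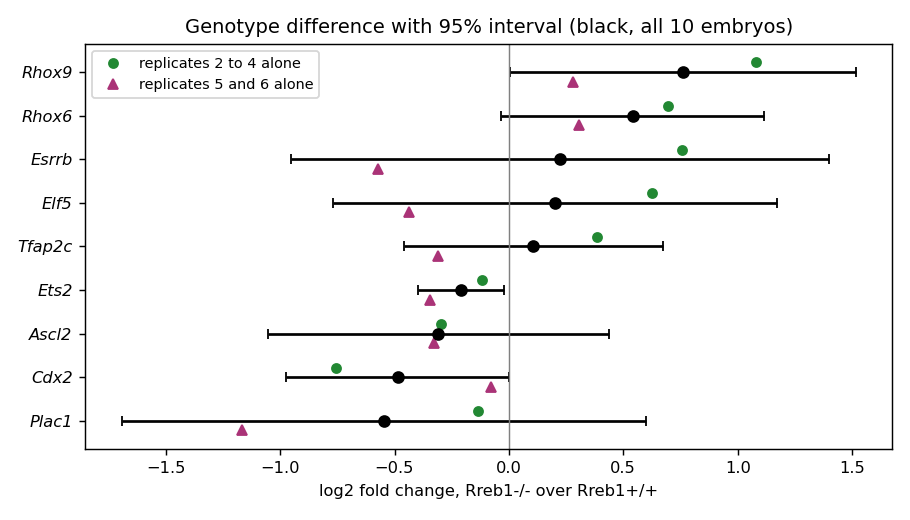
Log2 fold change of Rreb1-/- over Rreb1+/+ embryos for each gene (horizontal axis), with the 95% interval over all 10 embryos in black and the value in replicates 2 to 4 alone (green circles) and in replicates 5 and 6 alone (purple triangles). Elf5, Esrrb and Tfap2c lie on opposite sides of 0 in the 2 sets, at 0.62 and −0.44, 0.76 and −0.57, and 0.39 and −0.31.

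Within each set of replicates 0 of 9 genes were called, beside 3.59% of all genes in replicates 2 to 4 and 0.663% in replicates 5 and 6. In replicates 2 to 4 the log2 fold change of Elf5 was 0.62 (limma, adjusted p = 0.184), that of Esrrb 0.76 (0.271), that of Cdx2 −0.76 (0.0771) and that of Rhox9 1.08 (0.106). In replicates 5 and 6 these were −0.44 (0.434), −0.57 (0.461), −0.08 (0.766) and 0.28 (0.576), and Plac1 had its lowest value, −1.17 (0.441). The difference between the sets was tested for each gene as an interaction term. The interaction was −1.06 for Elf5 (standard error 0.34), −1.33 for Esrrb (0.49) and 0.68 for Cdx2 (0.26). In limma these 3 of 9 were under an unadjusted p of 0.05, beside 5.35% of all genes. After adjustment 0 of 9 passed (adjusted p = 0.628, 0.783 and 0.828 for these 3), beside 0.0449% of all genes, and since the sets were found in the same data these p-values are not those of a planned comparison.

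The spread between embryos was wide for most of these genes, though not for them alone. The SD of log2 values within genotype was 0.997 for Esrrb, 0.97 for Plac1 and 0.82 for Elf5, larger than that of 96.3%, 96.1% and 94.6% of the genes tested. Rhox9 (0.63), Ascl2 (0.62), Rhox6 (0.48), Tfap2c (0.48) and Cdx2 (0.41) also exceeded the median of all genes, 0.21. Ets2 was below it at 0.14. This SD includes the difference between the replicate sets. Genes of other tissues also spread widely: over the 10 embryos the epiblast gene Tdgf1 ranged from 8.48 to 3332 and Cdx1 from 54.2 to 3100. Of the other extraembryonic ectoderm genes examined, Tead4 (1076 to 1555) was steady and Eomes (642 to 5858) was not.

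The 9 genes did not rank the embryos alike. Rreb1+/+ replicate 6 was the highest of 10 embryos for 3 genes (Ets2, Ascl2 and Plac1), mutant replicate 3 was the highest for 1 and the lowest for 3, and mutant replicate 6 the highest for 1 and the lowest for 2. With the genotype means removed, 23 of the 36 pairs of genes had a positive Pearson r over the 10 embryos and 13 a negative one, from −0.76 (Esrrb with Rhox6) to 0.97 (Rhox6 with Rhox9). These coefficients are descriptions: all genes of an embryo share its library, its scaling and its stage.

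**Figure D3:**
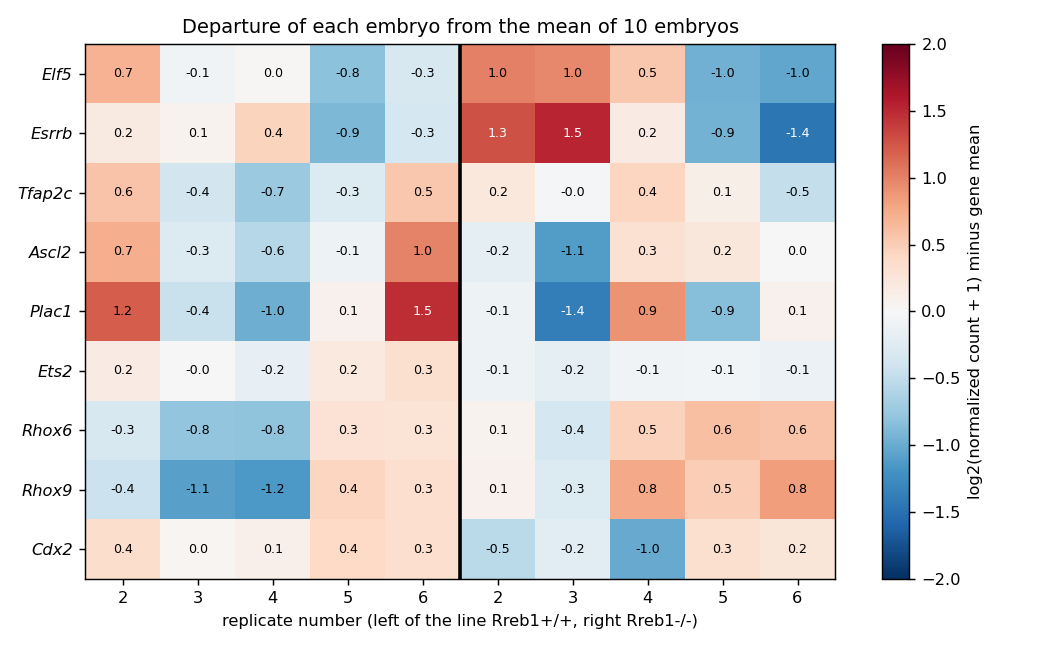
Log2(normalized count + 1) of each gene (rows) in each embryo (columns, replicate numbers 2 to 6, Rreb1+/+ left and Rreb1-/- right of the line) minus the mean of that gene over the 10 embryos, red above and blue below it. Elf5 and Esrrb are red in mutant replicates 2 and 3 (1.0 to 1.5) and blue in replicates 5 and 6 of both genotypes, and Plac1 reaches 1.2 and 1.5 in Rreb1+/+ replicates 2 and 6.

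Grouped after these values were seen, the genes are described by 3 patterns, the last 2 of which were not separate from each other. Elf5 and Esrrb went together (r = 0.93, n = 10 embryos), being high in replicates 2 to 4 and low in replicates 5 and 6. Tfap2c, Ascl2 and Plac1 went together (r = 0.72 for Tfap2c with Ascl2, 0.74 for Tfap2c with Plac1 and 0.88 for Ascl2 with Plac1), with Rreb1+/+ replicates 2 and 6 and mutant replicate 4 high. Rhox6 and Rhox9 formed the third, with r = 0.97, and were high in replicates 5 and 6 and in mutant replicate 4. Ets2 went with Rhox6 (r = 0.83), with Rhox9 (0.84) and with Ascl2 (0.78). Ascl2 was as close to Rhox6 (r = 0.74) as Tfap2c was to Ascl2 or Plac1. Ascl2 with Rhox9 (0.69), Plac1 with Rhox9 (0.69) and Plac1 with Rhox6 (0.63) followed. Tfap2c was less close to Rhox6 (0.36) and Rhox9 (0.37).

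Because the replicate sets differed, the coefficients were also taken over the 6 embryos of replicates 2 to 4, and 24 of the 36 pairs kept their sign. Ascl2 and Plac1 (r = 0.997), Rhox6 and Rhox9 (0.99) and Tfap2c with Plac1 (0.89) were as close there as over all embryos or closer. Ascl2 with Rhox6 (0.97) and Plac1 with Rhox6 (0.97) were closer there than Tfap2c with Plac1. Elf5 with Esrrb fell to r = 0.45, so that much of their likeness lay between the sets. Cdx2 turned sign, from −0.68 to 0.75 with Elf5 and from −0.60 to 0.86 with Esrrb. Esrrb kept a negative r with Rhox6 (−0.79), Rhox9 (−0.81), Plac1 (−0.71) and Ascl2 (−0.69). Replicates 5 and 6 are 4 embryos, too few for a coefficient.

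**Figure D4:**
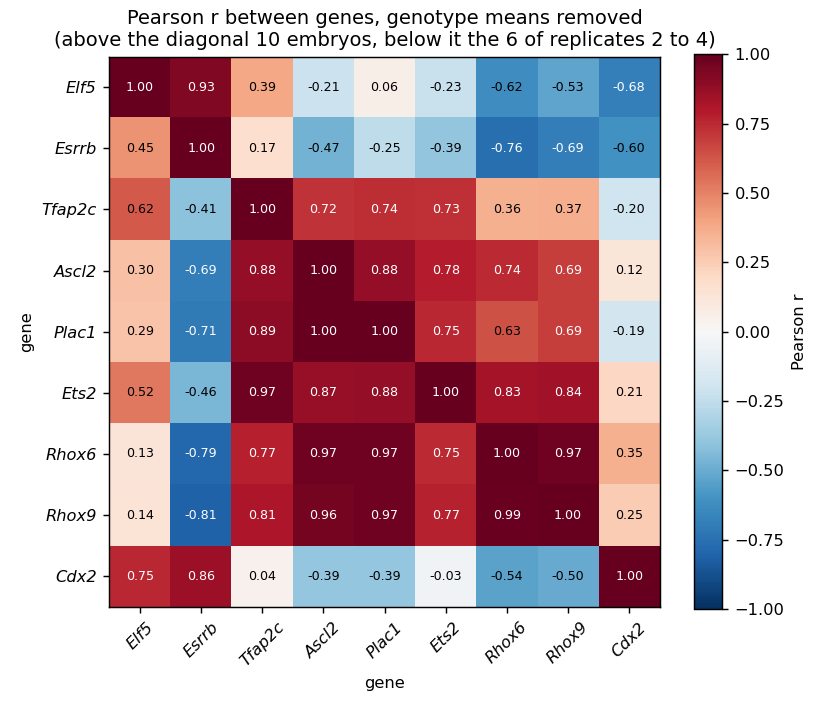
Pearson r between each pair of genes after removing genotype means, over all 10 embryos above the diagonal and over the 6 embryos of replicates 2 to 4 below it, red for positive and blue for negative. The block of Tfap2c, Ascl2, Plac1, Ets2, Rhox6 and Rhox9 is positive on both sides (0.36 to 0.97 above), and Cdx2 with Elf5 changes from −0.68 above to 0.75 below.

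The genes whose pattern over the 10 embryos was most like the mean of the 9 were Vstm5 (r = 0.97), Nek6 (0.96), Gjb5 (0.95), Hbegf (0.94), Lgals8 (0.94), Fthl17a (0.94), Blzf1 (0.94), Zfp667 (0.94), Ldoc1 (0.93) and Gkap1 (0.93), each with genotype means removed. Gjb5 encodes a connexin of trophoblast, Nek6 a mitotic kinase and Hbegf an EGF receptor ligand. In replicates 2 to 4 alone their r with the same mean was 0.92 to 0.99. The genes were picked over all 10 embryos, these included, so this range is not a second check of the likeness. None of the 10 was called between genotypes, with adjusted p from 0.222 (Nek6) to 0.989 (Ldoc1).

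Of 22 other genes of extraembryonic ectoderm and trophoblast stem cells, all 22 were tested and 0 were called, beside 4.26% of all genes. Their median log2 fold change was 0.11. At an unadjusted p under 0.05 there were 3 upward (Id2, Msx2 and Bmp4) and 1 downward (Furin), 4 of 22 beside 18.0% of all genes. Eomes, a T-box factor of trophoblast stem cells that is also active in the primitive streak and the anterior visceral endoderm, was looked at after its values were seen. Eomes stood at 1560, 1623, 1928, 720 and 758 in Rreb1+/+ embryos and at 5858, 4821, 4549, 747 and 642 in mutants. Mutant replicates 2 to 4 were above every Rreb1+/+ embryo, whereas mutant replicates 5 and 6 lay within or below the Rreb1+/+ range. Over all 10 embryos the log2 fold change of Eomes was 0.91 (limma, adjusted p = 0.506), whereas it was 1.57 in replicates 2 to 4 (adjusted p = 0.00239) and −0.09 in replicates 5 and 6 (adjusted p = 0.811). Its interaction term was −1.67 (standard error 0.19, limma, adjusted p = 0.0316), a test that none of the 9 genes passed. In this list Eomes alone passed within replicates 2 to 4 or by interaction. Outside it, the epiblast genes Tdgf1 (log2 fold change 3.38, limma, adjusted p = 0.00567) and Fgf5 (1.95, 0.0174) also passed upward within replicates 2 to 4. So did the streak genes Lhx1 (1.92, 0.00645) and Wnt3 (1.19, 0.0479), whereas the other epiblast and streak genes listed did not pass there. Rhox5, the most abundant gene of the Rhox cluster in these embryos, stood at 7606 to 10766 in Rreb1+/+ embryos and 7926 to 12290 in mutants (log2 fold change 0.17, limma, adjusted p = 0.562). Id2, an inhibitor of basic helix-loop-helix factors, stood at 6850 to 9160 and 7173 to 10447 (0.25, limma, adjusted p = 0.266). Fgfr2, the FGF receptor of trophoblast stem cells, stood at 3022 to 3583 and 2767 to 4049 (0.08, limma, adjusted p = 0.754).

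Among the relatives of the 9 by gene family, 13 of 19 were in the table and 10 were tested, with a median log2 fold change of −0.18. By limma 0 of 10 were called, beside 4.26% of all genes. At an unadjusted p under 0.05 there was 1 (Tfap2a, downward), beside 18.0% of all genes. With 10 genes these counts are too small to set apart from the shares of all genes. The highest by mean were Elf2 (3148 to 3594 in Rreb1+/+ embryos and 2730 to 3315 in mutants), Ets1 (1090 to 1445 and 1241 to 1543) and Cdx1. Cdx1, like Cdx2 a caudal homeobox gene of the posterior embryo, followed the replicate sets closely: it stood at 601, 243, 203, 2633 and 3100 in Rreb1+/+ embryos and at 59.3, 99.8, 54.2, 2498 and 2537 in mutants. It was lower in mutants within replicates 2 to 4 (log2 fold change −2.16, limma, adjusted p = 0.0320), whereas over all embryos the test was not passed (−1.37, adjusted p = 0.625), and its interaction term did not pass (adjusted p = 0.521). Cdx2 itself did not show this split in Rreb1+/+ embryos. In the rest of the Rhox cluster 11 of 30 genes were in the table and 3 were tested (Rhox1, Rhox4g and Rhox5). Of these 0 were called (4.26% of all genes) and 0 were under an unadjusted p of 0.05 (18.0% of all genes), and 3 genes are too few to compare with those shares.

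Markers of later trophoblast differed between single embryos. Of 14 genes of ectoplacental cone, syncytiotrophoblast and giant cells, 10 were in the table and 8 were tested. Bhlhe40, a basic helix-loop-helix repressor that is also widely expressed outside trophoblast, was the only one called and was higher in mutants. This is 1 of 8, beside 3.11% of all genes called higher, and 1 gene is not a result about later trophoblast. Bhlhe40 stood at 136, 239, 239, 179 and 190 in Rreb1+/+ embryos and at 488, 347, 349, 301 and 304 in mutants (log2 fold change 0.87, limma, adjusted p = 0.0213). Its genotypes did not overlap, as was so for 6.70% of all genes. Its log2 fold change stayed at 0.84 to 0.87 without Rreb1+/+ replicate 5, Rreb1+/+ replicate 6 or mutant replicate 4, with an adjusted p of 0.0505 to 0.0575 that misses the threshold. The threshold was also missed in replicates 2 to 4 alone (0.97, adjusted p = 0.0870), in replicates 5 and 6 alone (0.71, 0.152), with the Y-linked covariate (1.35, 0.0797), without mutant replicates 2 and 6 (0.78, 0.0770) and without Rreb1+/+ replicate 5 and mutant replicate 6 (0.89, 0.0692).

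The following genes of that list were singled out after their values were seen. Prl3d1, the placental lactogen of trophoblast giant cells, stood at 149, 0, 4.77, 666 and 27.3 in Rreb1+/+ embryos and at 27.6, 2.08, 0, 0 and 766 in mutants. Prl2c2, or proliferin, was above 3 only in Rreb1+/+ replicate 5 (55.7) and mutant replicate 6 (189). Mmp9, a matrix protease of invading trophoblast that leukocytes also make, was highest in the same 2 embryos (350 and 197, with the others at 10.04 to 77.2). Tpbpa, the marker of ectoplacental cone and spongiotrophoblast, was at 64.1 in Rreb1+/+ replicate 6, 3.84 in Rreb1+/+ replicate 2 and 1.06 in mutant replicate 2, and at 0 in the other 7. The 4 genes did not separate the genotypes, and the embryo high for Tpbpa was also the highest for Ascl2 and Plac1.

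**Figure D5:**
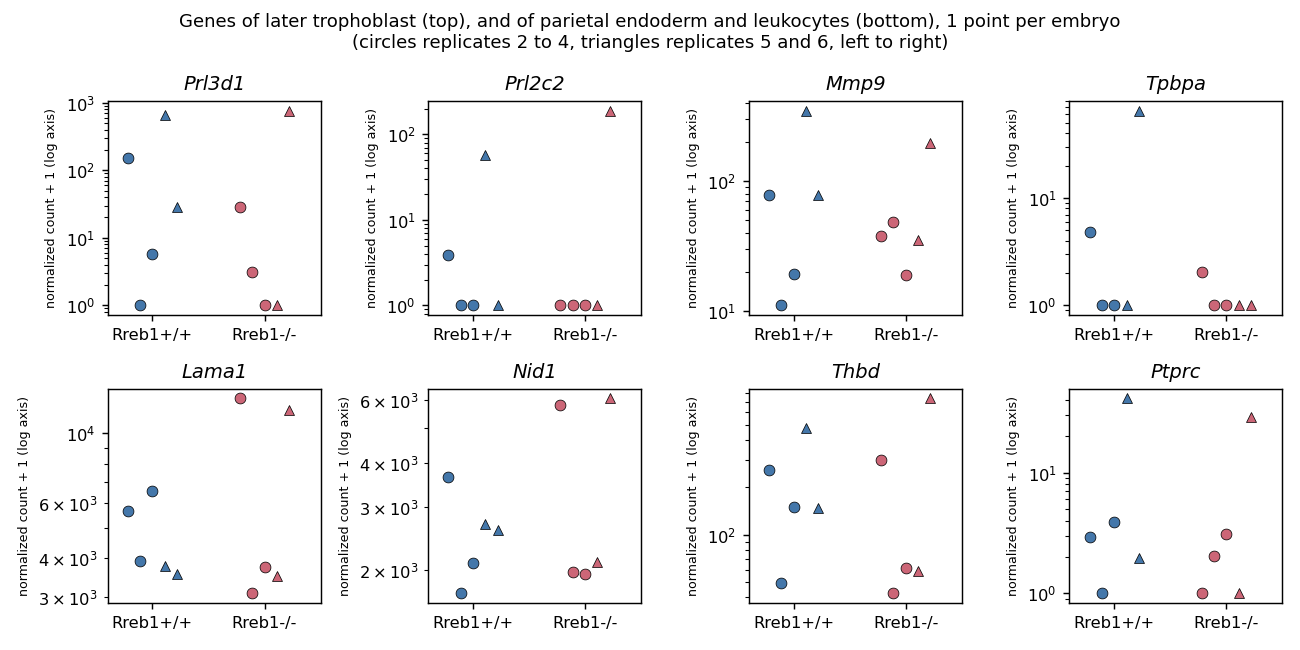
Normalized counts + 1 (log axes) of 4 genes of later trophoblast (top, Prl3d1, Prl2c2, Mmp9 and Tpbpa), 3 of parietal endoderm (Lama1, Nid1 and Thbd) and the leukocyte gene Ptprc (bottom) in each embryo, symbols as in the plot of the 9 genes. Rreb1+/+ replicate 5 and mutant replicate 6 are high for Prl3d1 (666 and 766 counts) and Ptprc (40.3 and 28.2), and mutant replicates 2 and 6 for Lama1 (12932 and 11860).

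Genes of the other tissues in the sample also varied between embryos. The summed level of 8 parietal endoderm genes was 54167 to 70551 in Rreb1+/+ embryos, 51688 to 56994 in mutant replicates 3 to 5, and 104290 and 114610 in mutant replicates 2 and 6. In mutant replicate 6, Col4a1 gave 38927 and Sparc 23244 of this sum. All but Thbd were highest in these 2 embryos, whereas Thbd was higher in Rreb1+/+ replicate 5 (472) than in mutant replicate 2 (296). This tissue had been dissected off, and whether some of it remained was not tested. The summed level of 8 maternal decidua and leukocyte genes was 447 to 710 and 486 to 813, and the leukocyte gene Ptprc was at 40.3 in Rreb1+/+ replicate 5 and 28.2 in mutant replicate 6 and at most 2.86 elsewhere. Visceral endoderm genes (10) summed to 285880 to 327120 and 219370 to 305530. Among them only Afp, a secreted plasma protein, was called (lower, log2 fold change −1.32, limma, adjusted p = 0.0157), beside 1.15% of all genes called lower. Epiblast genes (7) summed to 35073 to 53439 in replicates 2 to 4 and to 15590 to 20831 in replicates 5 and 6 of the 2 genotypes. Streak and nascent mesoderm genes (7) likewise summed to 8333 to 12368 and to 2792 to 4283. Single genes weighed heavily in both sums: in Rreb1+/+ replicate 4, T gave 9627 of the streak sum and Dnmt3b 35744 of the epiblast sum. Utf1 of the epiblast genes and Fgf8, Tbx6 and Lhx1 of the streak genes were not lower in replicates 5 and 6 of both genotypes. Extraembryonic mesoderm genes (7) summed to 13912 to 17708 in Rreb1+/+ embryos and 9936 to 20428 in mutants, and germ cell genes (5) to 431 to 727 and 443 to 615. The part that the amounts of these tissues had in the values of the 9 genes was not tested. Without mutant replicates 2 and 6, 0 of 9 were called, beside 2.74% of all genes, and without Rreb1+/+ replicate 5 and mutant replicate 6, 0 of 9 beside 2.67%. With no call among the 9 over all embryos, and fewer embryos in these fits, these counts do not bear on that question.

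Sex was unevenly spread over the genotypes, which bears on the X-linked Plac1, Rhox6 and Rhox9. Xist, the RNA of the inactive X, stood at 45657 to 68009 in Rreb1+/+ embryos and 58036 in mutant replicate 2, with the summed Y-linked Ddx3y, Eif2s3y, Kdm5d and Uty at 0 to 3.82. Mutant replicates 3 to 6 had Xist at 39.3 to 61.3 and Y-linked sums of 5849 to 9172. Mutant replicate 2, with a Y-linked sum of 2.12, stood at 713 for Rhox6, 283 for Rhox9 and 1082 for Plac1, each within the Rreb1+/+ range. When the fit included the summed Y-linked level as a covariate, 0 of 9 genes were called (0.686% of all genes), and the log2 fold changes moved to 0.33 for Rhox6, 0.47 for Rhox9 and −0.24 for Plac1. With 1 mutant of this kind, sex and genotype cannot be told apart.

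Rreb1 itself, on chromosome 13 from 37778400 to 37952005, had a mean of 2644 ± 211 in Rreb1+/+ embryos and 5010 ± 718 in mutants (SD, n = 5 embryos each; log2 fold change 0.91, limma, adjusted p = 0.000482). The counts are summed over all exons, so that this does not check the deletion.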

How the data were processed

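Single E7.5 embryos (5 Rreb1+/+ and 5 Rreb1-/-) were sequenced from polyadenylated RNA as paired reads of 50 bases. The authors aligned the reads with STAR, counted them per gene with HTSeq and scaled them with DESeq, so the deposited signal of a gene is a read count divided by 1 size factor per embryo, and is called a normalized count. Not given in the sources used here are the build, the gene models and the use of strand in counting. Within each embryo 100% of the deposited values could be written as a whole number of reads (tolerance 0.1 read), and these recovered reads served for depth and for the count models only. Replicates are separate embryos. The table kept 20974 genes, all with at least 15 recovered reads in sum.

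Genotypes were compared with limma 3.58.1 (moderated, variance following the mean; R 4.3.3) on log2(normalized count + 1), a scale that understates changes of low genes, over genes whose mean reached 15 in either genotype, with Benjamini-Hochberg adjustment over all 15603. The procedure was tested on simulated data. Each member was checked by exact two-sided permutation of the 10 embryos (Python 3.11.15, scipy 1.17.1). The alternatives tried included DESeq2 1.42.0 and edgeR 4.0.16 on recovered reads, other scalings, pseudocounts and filters, the replicate number as a block, a Y-linked covariate, each replicate set alone and leaving out each embryo. In 2 alternatives a pair of embryos was left out, both added after seeing the data. Embryos of the same number in both genotypes deviated from their genotype means together (correlation 0.253 to 0.459 for 5 pairs), but this was not particular to the number: embryos of unequal number within a replicate set reached 0.383 (Rreb1+/+ replicate 3 with mutant replicate 4) and 0.492 (Rreb1+/+ replicate 5 with mutant replicate 6).

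Named genes were all members, called genes of the other lists (otherwise the 3 highest by mean, given here for the trophoblast, Rhox and family lists, while other lists are given as sums), the 10 genes most like the mean of the members, and Xist, Y-linked genes and Rreb1. Members and lists were chosen with earlier results of these data known. Positions and exon lengths (the union of exons) came from GENCODE M21 by gene identifier, for 20884 genes, and promoters from RefSeq.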

Additional observations from a re-analysis of the deposited data

Results flagged for a closer look

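Of the 9 genes and the listed genes beside them, Eomes alone had a genotype difference that passed the test of a difference between the replicate sets. Its log2 fold change in replicates 5 and 6 minus that in replicates 2 to 4 was −1.67 (interaction term, limma, adjusted p = 0.0316). All 3 mutants of replicates 2 to 4 stood above every Rreb1+/+ embryo, and neither mutant of replicates 5 and 6 did. Among all genes tested 7 passed this test (0.0449%). The sets were found in these data and are not named in the labels, and by Dixon's test no embryo stood apart from the others of its genotype for any of the 9 genes (18 groups).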

How the results depend on the processing

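No alternative brought any of the 9 genes to an adjusted p under 0.05: 0 of 9 were called under each of 25 settings. The main fit called 4.26% of all genes, and some settings called very few. These shares were 0.686% with the Y-linked covariate and 0.663% in replicates 5 and 6 alone, so that 0 of 9 says little there. Cdx2, Ets2, Ascl2, Plac1, Rhox6 and Rhox9 kept their direction under all 25. Elf5, Esrrb and Tfap2c did not. In replicates 5 and 6 alone their log2 fold changes turned to −0.44, −0.57 and −0.31. Leaving out 1 embryo at a time gave −0.027 to 0.49 for Elf5 (negative without mutant replicate 2 or 3), −0.13 to 0.62 for Esrrb (the same embryos) and −0.065 to 0.26 for Tfap2c (negative without Rreb1+/+ replicate 4). The cause was not tested. The replicate block left each log2 fold change as it was, gave the lowest adjusted p of any setting for Rhox6 (0.0672) and Rhox9 (0.0997), and changed no call of the 9 (0 called). With the Y-linked covariate Elf5 and Esrrb came to 1.17 and 1.44 (limma, adjusted p = 0.396 and 0.384), and Bhlhe40 (1.35, adjusted p = 0.0797) and Afp (−1.40, 0.184) missed the threshold although their fold changes were larger than without the covariate (0.87 and −1.32). Bhlhe40 lost its call in 8 of 25 settings, with adjusted p up to 0.152, and Afp in 1. Scaling moved the median log2 fold change of all genes by less than 0.1. Depth did not limit these values, each of the 9 genes having over 100 normalized counts in every embryo. The spread between 5 embryos did: the 95% interval of Esrrb covers folds of 0.518 to 2.64 and that of Plac1 0.310 to 1.51.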

Other observations

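Genes most like each of the 3 patterns, found after the values were seen, are given as descriptions over 10 embryos with genotype means removed. With the mean of Elf5 and Esrrb, the highest r was that of Nptxr (0.98), Cxcr4 (0.98), Oxct1 (0.98) and Zfp42 (0.98), a zinc finger gene of pluripotent and trophoblast cells. Then came Irf1, Srd5a1, Inpp1 and, as eighth, Rhox5 (each 0.97). With the mean of Tfap2c, Ascl2 and Plac1 it was Rab8b (0.98), Ldoc1 (0.97), Mbnl3 (0.97) and Vav3 (0.97), and among the 10 closest were Lpl, a lipoprotein lipase (0.94), and Pparg, a nuclear receptor needed for the placenta (0.94). With the mean of Rhox6 and Rhox9 it was Cd200 (0.96), Cdc42se2 (0.95), Slc10a7 (0.95) and Pafah1b2 (0.95). None of these was called between genotypes by limma.

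Lhx1, of the streak list, was looked at after its values were seen. Lhx1 stood at 320, 458, 612, 424 and 382 in Rreb1+/+ embryos and at 2029, 1467, 1631, 377 and 548 in mutants. Mutant replicates 2 to 4 were above every Rreb1+/+ embryo, and mutant replicates 5 and 6 lay within the Rreb1+/+ range. The log2 fold change of Lhx1 was 1.22 over all embryos (limma, adjusted p = 0.158), 1.92 in replicates 2 to 4 (adjusted p = 0.00645) and 0.17 in replicates 5 and 6 (adjusted p = 0.774). Its interaction term was −1.74 (limma, adjusted p = 0.201).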
